A study of Mus musculus with 2 samples.

Results

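Protein phosphatase 2A (PP2A) is a serine/threonine phosphatase built from a scaffold subunit, a catalytic subunit and an exchangeable regulatory subunit, and in heart muscle it acts on contractile and calcium-handling proteins. Besides its subunits, the cell makes small inhibitor proteins that bind and silence it, enzymes that add and remove a methyl group at the end of the catalytic subunit, and assembly factors that hold or activate free catalytic subunits. The 9 genes described here encode such proteins and were chosen by name, as the non-control probes of the array that carry *Set*, *Anp32a*, *Ensa*, *Arpp19*, *Lcmt1*, *Ppme1*, *Igbp1*, *Tiprl* or *Ppp2r4* as gene name. They make up 9 of 37074 gene names and 16 of 56605 probes.

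RNA came from MCMs, mouse cardiomyocytes that were bought and passaged in culture in medium with 2% fetal bovine serum. In the siRNA-NC condition, 1 culture received a negative control siRNA, and in the siRNA-*Ppp2r5d* condition 1 culture received an siRNA against *Ppp2r5d*, which encodes the delta isoform of the B56 regulatory subunit. Both cultures were given glucose-free medium from 48 h after transfection, and by the labels gene expression was read at 64 h. Each RNA was hybridized to 1 array, so values stand without replicates and without p-values. An effect of the siRNA and an unrelated difference between these 2 cultures cannot be told apart, and precision is limited by having 1 array per condition.

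Of 14 cardiomyocyte markers, 10 stood well above background on 1 or both arrays, while *Actn2*, *Myl2*, *Myl7* and *Pln* were not. Of 7 fibroblast markers 6 were well above background, as were 4 of 4 smooth muscle markers, 2 of 4 endothelial markers and 2 of 3 leukocyte markers. A marker counted if at least 1 of its probes did, and the number of probes measured on both arrays varied. It was 1 of 7 for *Ptprc*, 1 of 4 for *Myh11*, 1 of 3 for *Tnnt2* and 1 of 2 for *Cnn1*, but 4 of 4 for *Acta2* and *Col1a1*. Some of these markers differed between the arrays. The smooth muscle genes *Cnn1* and *Tagln* had log2 fold changes of 2.41 and 0.85 with siRNA-*Ppp2r5d*, beside -0.38 for *Myh11* and -0.022 for *Acta2*. The 8 cardiomyocyte markers measured on both arrays ran from -0.19 for *Tnni3* to 0.89 for *Ttn*, with a median of 0.25. The fibroblast markers ran from -0.32 for *Col1a2* to 0.62 for *Pdgfra*, *Pecam1* of the endothelium had -0.23, and the leukocyte markers *Cd68* and *Ptprc* had -0.77 and 0.13. Their part in the values below was not tested. A different share of a cell type and a different amount of RNA per cell cannot be told apart in such a culture. The probe of the siRNA target read 4701 with siRNA-NC against 676 with siRNA-*Ppp2r5d*. That is a log2 fold change of -2.61, or 6.09-fold lower with siRNA-*Ppp2r5d*.

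The probes show which part of each transcript was read, and those printed here lie in coding sequence as far as their reading frame shows. Positions are those of the scanner files, in build mm9, and all of the printed probes are on the plus strand. The *Arpp19* probe, with the codons around the serine that the greatwall kinase phosphorylates in capitals, lies at chr9:74900127-74904465, an interval of 4339 bases for 60 bases of probe, so it bridges an intron.
*Arpp19*: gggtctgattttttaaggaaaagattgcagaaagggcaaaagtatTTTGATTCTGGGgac
The probe of *Ensa*, the close relative of *Arpp19*, lies at chr3:95430702-95430761 and was designed on transcript variant 1, with no part marked.
*Ensa*: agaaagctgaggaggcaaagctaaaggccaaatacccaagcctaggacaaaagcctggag
For *Set*, 1 probe lies inside the coding sequence at chr2:29925091-29925150. Another, at chr2:29926444-29926503, begins in the codons of the acidic tail of the protein and runs past the stop codon, and it is printed up to the stop codon, which is in capitals.
*Set*, coding probe: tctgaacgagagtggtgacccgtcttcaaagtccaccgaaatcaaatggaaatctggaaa
*Set*, tail probe: gaaggcgaggatgatTAG
The probe of *Anp32a* at chr9:62219883-62219939 reads the leucine-rich repeats, that of *Lcmt1* at chr7:130571611-130571670 reads the end of the methyltransferase, and that of *Igbp1* at chrX:97698441-97698500 reads an inner part of the coding sequence. The probes of *Lcmt1* and *Igbp1* alone carry the values of their genes, while that of *Anp32a* is averaged with another probe. No part of these is marked. The probes of *Ppme1*, *Tiprl* and *Ppp2r4* may lie past the coding sequence and are not printed.
*Anp32a*: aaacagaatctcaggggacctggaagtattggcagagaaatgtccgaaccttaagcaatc
*Lcmt1*: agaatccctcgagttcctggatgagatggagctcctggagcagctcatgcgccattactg
*Igbp1*: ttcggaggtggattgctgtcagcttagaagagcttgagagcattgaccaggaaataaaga

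None of the 9 genes differed by 2-fold or by 1.5-fold between the 2 arrays. The log2 fold changes, siRNA-*Ppp2r5d* over siRNA-NC after scaling each array to its 75th percentile, ran from -0.015 for *Ppp2r4* to 0.35 for *Tiprl*, with a median of 0.076. The median over 20311 genes well above background on both arrays was 0.024. Of the 9 genes, 0 were past 2-fold, beside 525 of 21638 genes on the array, or 2.43% (1.0% higher and 1.42% lower with siRNA-*Ppp2r5d*). Likewise 0 of the 9 were past 1.5-fold, beside 1987 genes, or 9.18% (3.78% higher and 5.40% lower). A count of 0 among 9 genes is close to what these shares give, so it is no result about these genes as a group. Values above 0 were seen for 7 genes and values below 0 for 2, but this split moves with the scaling, as described below.

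The scanner software marked 14 of the 16 probes as well above background on both arrays, and none as outlier or saturated. Each probe has 1 spot per array. For the 14 probes the error that the software gives was at most 10.09% of the intensity, which is 0.20 to 0.21 on the log2 scale for the difference between arrays. Of the 14 differences, 6 exceeded this error and 0 exceeded it 2 times. Spots of the same probe agree more closely than that, with a median SD of 0.036 of the log2 fold change over 293 probes with 10 spots each, and 10 of the 14 differences were larger than 2 such SDs. Both errors cover the measurement within these arrays and not the spread between cultures.

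**Figure D1:**
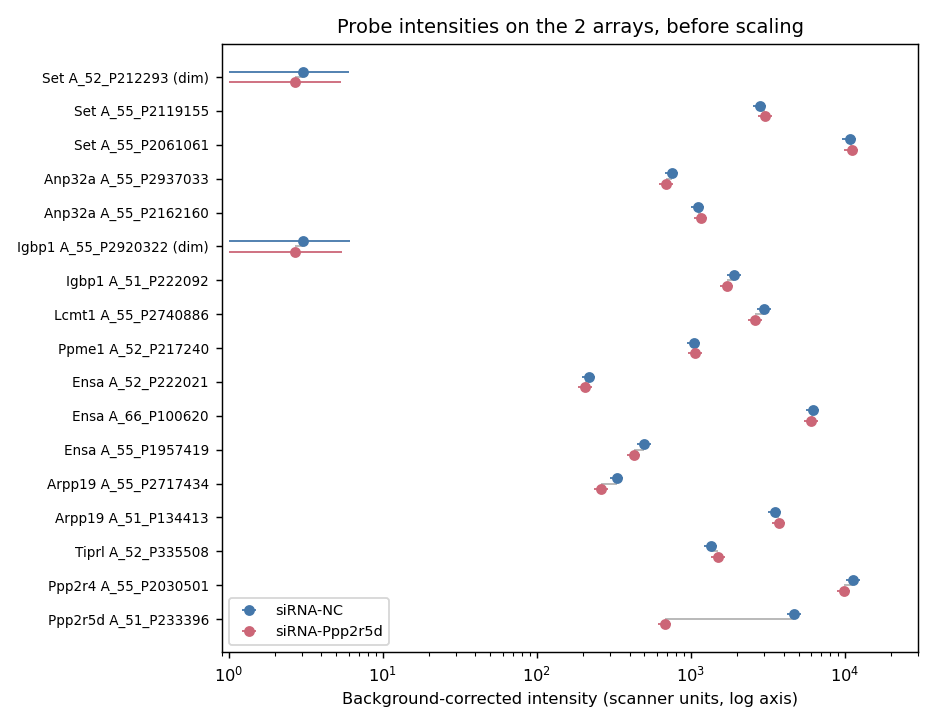
Background-corrected intensity of the 16 probes of the 9 genes and of the *Ppp2r5d* probe on the siRNA-NC and siRNA-*Ppp2r5d* arrays, on a log axis and before any scaling between arrays. Bars are the error given by the scanner software, cut off at an intensity of 1 for the dim probes. The *Ppp2r5d* points, 4701 and 676, are the furthest apart.

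*Set* and *Anp32a* encode the acidic proteins also known as the second and the first inhibitor of PP2A. The tail probe of *Set* had an intensity of 10707 with siRNA-NC and 11036 with siRNA-*Ppp2r5d*. The coding probe of *Set* had 2813 and 3035. Both were slightly brighter on the siRNA-*Ppp2r5d* array before any scaling, and after scaling their log2 fold changes were 0.23 and 0.30, which gives 0.27 for the gene, or 1.20-fold. The third probe of *Set*, at chr2:29919158-29919217, was made from a cDNA clone and not from the reference transcript. It was not well above background on either array, with intensities of 3.03 and 2.68. The coding probe shares a run of 30 bases and the tail probe a run of 27 bases with array probes for other transcripts, so RNA from near-identical copies of *Set* may be part of these signals, which was not tested. For the other 8 genes no such run was longer than 15 bases. Only probes of the array were compared, so similar transcripts without a matching probe would be missed.

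*Anp32a* was read by 2 probes on chromosome 9. The coding probe had intensities of 751 and 694, and the probe at chr9:62225436-62225495, closer to the end of the transcript, had 1108 and 1162. The raw values thus point opposite ways, while after scaling both lay above 0, with log2 fold changes of 0.077 and 0.26. The gene value was 0.17, or 1.12-fold. *Set* minus *Anp32a* was 0.099 on the log2 scale, with a spot error of 0.036 and a scanner error of 0.20.

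*Ensa* and *Arpp19* encode small proteins that inhibit PP2A with a B55 subunit once the greatwall kinase, encoded by *Mastl*, has phosphorylated them at the entry into mitosis. *Ensa* was read by 3 probes on chromosome 3. The coding probe had 218 with siRNA-NC and 207 with siRNA-*Ppp2r5d*, and the other probe of transcript variant 1, at chr3:95435850-95435909, had 499 and 427. The probe of transcript variant 2, at chr3:95434127-95434186, had 6214 and 6037. All 3 were a little dimmer on the siRNA-*Ppp2r5d* array before scaling, and after scaling their log2 fold changes were 0.11, -0.033 and 0.15 in this order. The gene value was 0.076, with an SD between probes of 0.096 (n = 3 probes).

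*Arpp19* had the widest spread between probes among these genes. The coding probe across the intron had 3517 with siRNA-NC and 3718 with siRNA-*Ppp2r5d*, a log2 fold change of 0.27. The other probe, at chr9:74886169-74886228 and made from an Ensembl transcript, had 331 and 263, a log2 fold change of -0.14. These probes pointed opposite ways both before and after scaling and lay 0.41 apart, so the gene value of 0.064 is a mean of unlike values. Among 4370 genes with exactly 2 measured probes, the median gap between probes was 0.13, and 85.9% of these genes had a smaller gap than *Arpp19*. The probes of 29.6% of these genes had opposite signs.

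The methylation of the catalytic subunit is written by *Lcmt1*, the leucine carboxyl methyltransferase, and erased by *Ppme1*, the methylesterase. *Lcmt1* had an intensity of 3001 with siRNA-NC and 2624 with siRNA-*Ppp2r5d*. Its log2 fold change after scaling was -0.003, the value closest to 0 among the 9 genes. *Ppme1*, read by 1 probe at chr7:107475488-107475547 on the minus strand, had 1048 and 1069. Its log2 fold change was 0.22, or 1.16-fold. *Ppme1* minus *Lcmt1* was 0.22 on the log2 scale with a spot error of 0.051 and a scanner error of 0.29, so the difference exceeded the former and not the latter. Any scaling by 1 factor per array leaves this difference as it is. Each of the 2 enzymes rests on 1 probe.

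The assembly factors held both the highest and the lowest value of the 9 genes, and each of them rests on 1 measured probe. *Tiprl* encodes a protein that binds the catalytic subunits of PP2A and its relatives PP4 and PP6. Its probe, at chr1:167145730-167145789 on the minus strand, had 1348 with siRNA-NC and 1510 with siRNA-*Ppp2r5d*. The log2 fold change of 0.35, or 1.28-fold, was the highest of the 9 and had a scanner error of 0.20. It ranked 1873 from the top among 20311 genes, so 90.8% of the measured genes had a lower value.

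*Igbp1* encodes alpha4, which holds free catalytic subunits and protects them from degradation. Its coding probe had 1915 and 1708, a log2 fold change of 0.025. Its other probe, at chrX:97691129-97691188, was not well above background on either array, with 3.05 and 2.71. *Ppp2r4*, now named *Ptpa*, encodes the activator that brings the catalytic subunit into its active form. Its probe, at chr2:30303266-30303325, had 11356 and 9848, a log2 fold change of -0.015. *Tiprl* minus *Igbp1* was 0.33 and *Tiprl* minus *Ppp2r4* was 0.37 on the log2 scale, each with a spot error of 0.051 and a scanner error of 0.29.

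**Figure D2:**
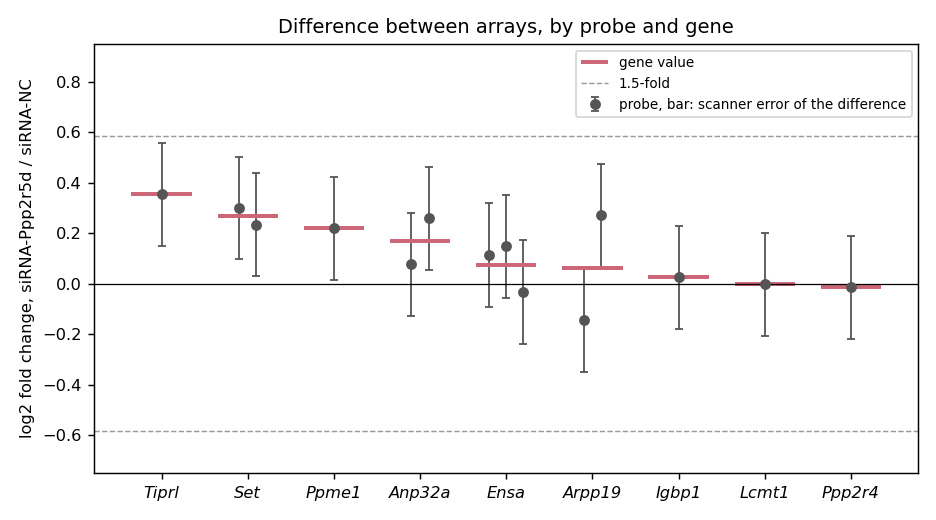
The log2 fold change of siRNA-*Ppp2r5d* over siRNA-NC for each of the 14 measured probes (points, with the scanner error of the difference as bars) and for each gene (red lines), after scaling to the 75th percentile. All probes lie inside the dashed lines at 1.5-fold, and the *Arpp19* probes lie on both sides of 0, at -0.14 and 0.27.

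Ordered by log2 fold change, the genes ran *Tiprl*, *Set*, *Ppme1*, *Anp32a*, *Ensa*, *Arpp19*, *Igbp1*, *Lcmt1* and *Ppp2r4*. Of the 8 steps between neighbours in this order, 7 were within 2 spot errors. The exception was the step of 0.092 from *Anp32a* to *Ensa*, which was smaller than its scanner error of 0.19 and than the SD between probes of either gene, 0.13 and 0.096. With the probe of the highest mean signal for each gene the order was another, with 0.27 for *Arpp19*, the second highest, 0.26 for *Anp32a*, 0.23 for *Set*, 0.22 for *Ppme1* and 0.15 for *Ensa*. In the order given first, *Tiprl* with 0.35, *Set* with 0.27, *Ppme1* with 0.22 and *Anp32a* with 0.17 stood above the step to *Ensa*. Below that step stood 5 genes between -0.015 and 0.076. Among all measured genes, the central 80% of log2 fold changes ran from -0.385 to 0.338, and *Tiprl* was the 1 gene of the 9 outside this range.

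**Figure D3:**
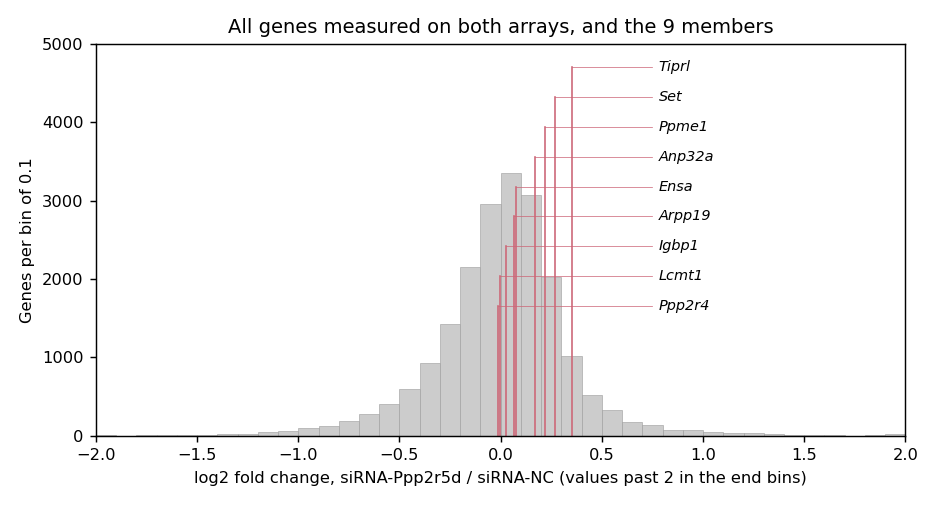
Number of genes per bin of 0.1 of the log2 fold change for 20311 genes measured on both arrays, with the 9 genes as red lines. The 9 values lie between -0.015 and 0.35, beside a median of 0.024 over all genes, and *Tiprl* lies above 90.8% of them.

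The sign of small differences depended on the scaling between arrays. Before scaling, 6 of the 14 measured probes were brighter and 8 dimmer on the siRNA-*Ppp2r5d* array, and after scaling 10 were higher and 4 lower. Scaling to spike-in probes shifted the median of all measured genes by -0.21, to -0.19, and left *Tiprl* with 0.14, *Set* with 0.054 and *Ppme1* with 0.005 as the 3 values above 0. These 3 genes were above 0 under all 11 ways of processing that were run, the reported one included. The reported scaling and the spike-in scaling each subtract 1 value per array, so a difference between medians is necessarily the same under both. Relative to the median of all measured genes, the median of the 9 genes was thus 0.052 higher under both. Over all 11 ways it was between 0.001 higher, after normexp background correction, and 0.183 higher, with the probe of the highest mean signal for each gene. Under quantile normalization *Ppp2r4* had -0.10, and the span from *Ppp2r4* to *Tiprl* was 0.45 instead of 0.37. Under none of the 11 ways was 1 of the 9 genes past 1.5-fold. As reported, 9.18% of all genes were past it, so a count of 0 is no result about these genes as a group.

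**Figure D4:**
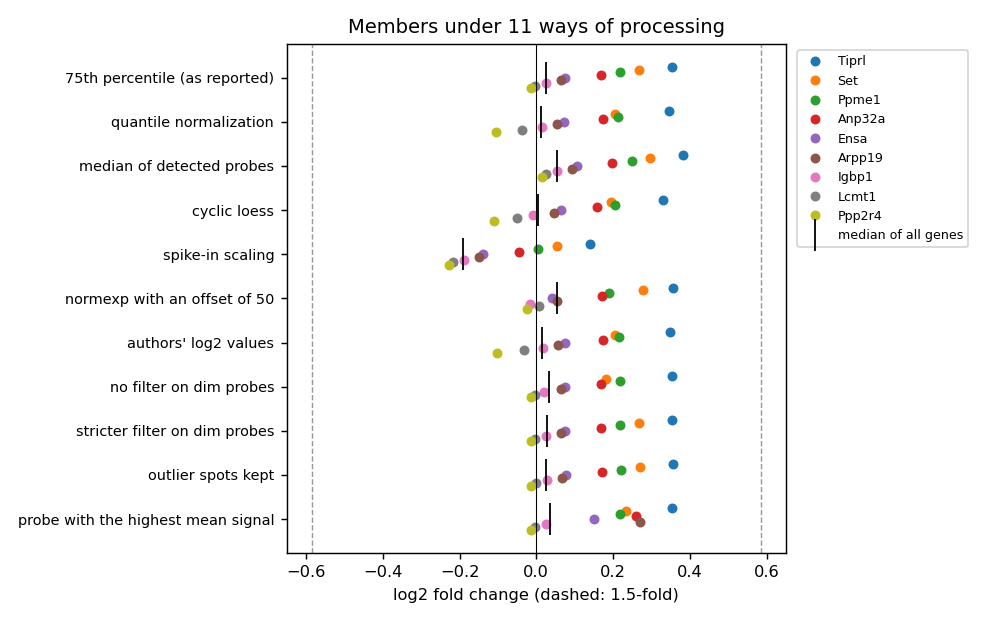
Log2 fold change of the 9 genes (coloured points) and median of all measured genes (black ticks) under 11 ways of processing. Spike-in scaling moves all points to the left by 0.21, and under each way *Tiprl* is the highest and *Ppp2r4* the lowest of the 9.

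The genes around these proteins were read from lists of related genes, whose order was not tested against the 9 genes, since 1 array per condition allows no test. Among 9 subunits of the PP2A core and the B56 family, the median was 0.051, and *Ppp2r5d* was the 1 gene past 2-fold. The highest was the scaffold gene *Ppp2r1a*, with 0.38. Of 10 other regulatory subunits and striatins, 8 were measured, from -0.30 for *Ppp2r3d* to 0.16 for *Ppp2r2a*, with 4 above 0 and 4 below. The 13 genes of PP4 and PP6, the phosphatases that share *Igbp1* and *Tiprl* with PP2A, had a median of 0.026 and ran from -0.27 for *Ankrd44* to 0.16 for *Ppp6r1*. In both of the latter lists 0 genes were past 2-fold.

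Of 10 genes listed as further inhibitors and modulators of PP2A or as relatives of members by name, 9 were measured. Their median was -0.069, and the 3 values above 0 were those of the relatives *Anp32b*, *Anp32e* and *Lcmt2*. The relatives of *Anp32a* had 0.069 for *Anp32b* and 0.26 for *Anp32e*, the highest of this list. *Lcmt2*, named after *Lcmt1*, had 0.17, and *Igbp1b* was not well above background. The lowest was *Sgol1*, shugoshin, which brings PP2A to centromeres, with -0.89. A list of 6 genes around the SET complex, which holds DNA repair enzymes beside the SET protein, had a median of 0.11. It includes *Anp32b* and *Anp32e*, which were listed as relatives of *Anp32a* and are counted in the list above too. *Anp32e* was its highest gene, with 0.26. Of the others, *Apex1* had 0.23, *Nme1* 0.16, *Trex1* -0.19 and *Hmgb2*, the lowest, -0.49. A list of 5 genes around the methyl donor cycle, which supplies *S*-adenosylmethionine to the methyltransferase, had a median of -0.031. In it *Mat2a* had -0.031, *Mat2b* -0.037 and *Ahcy*, the lowest, -0.094. The values above 0 were those of *Ahcyl1* and *Ahcyl2*, relatives of *Ahcy* by name, with 0.17 and 0.18.

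The list around the greatwall kinase had the lowest median of the 7 related lists. Of its 13 genes, 12 had values below 0, beside 46.1% of all measured genes, the median was -0.56, and 0 were past 2-fold, beside 2.43%. The lowest was *Plk1*, a kinase of mitotic entry, with -0.93, and the 1 gene above 0 was *Cdc25a*, a phosphatase that activates cyclin-dependent kinases, with 0.125. Over all ways of processing the median of this list lay between -0.78 and -0.53. Lower values of cell cycle genes on these arrays were known when the list was written, so this is a description and not independent evidence.

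The gene values of the substrates *Ensa* and *Arpp19* lay near 0, the latter as a mean of 0.27 and -0.14. Their kinase gene *Mastl* was lower on all of its 4 probes. Its intensities were 211 with siRNA-NC and 120 with siRNA-*Ppp2r5d* on the first probe, 46.8 and 23.7 on the next, 36.5 and 28.3 on the third, and 25.41 and 14.79 on the fourth. The log2 fold changes ran from -0.79 to -0.18, with -0.54 for the gene. *Mastl* minus *Ensa* was -0.62 and *Mastl* minus *Arpp19* was -0.61 on the log2 scale, with spot errors of 0.027 and 0.031. A scaling by 1 factor per array leaves these differences as they are, and their scanner errors were not calculated. Of the *Mastl* probes, 3 had intensities under 50 on both arrays, and the gap between the *Arpp19* probes, 0.41, is of similar size.

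**Figure D5:**
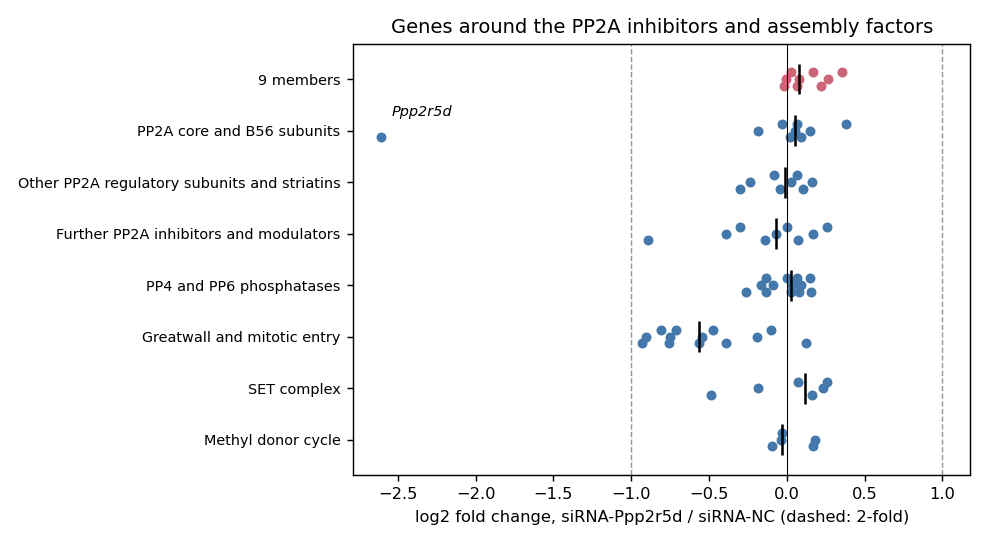
Log2 fold change of the 9 genes (red) and of the measured genes of 7 related lists (blue), with the median of each list as a black bar and 2-fold as dashed lines. The members lie between -0.015 and 0.35, *Ppp2r5d* stands apart at -2.61, and the list of greatwall and mitotic entry has its median at -0.56.

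In the genome, the 9 genes are spread over 6 chromosomes, and 3 pairs share 1. The probes of *Set* and *Ppp2r4* lie 377 kb apart on chromosome 2, with log2 fold changes of 0.27 and -0.015. Those of *Lcmt1* and *Ppme1* are 23.1 Mb apart on chromosome 7, and those of *Anp32a* and *Arpp19* 12.7 Mb apart on chromosome 9.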

How the data were processed

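For each of the 2 arrays the authors deposited spot intensities from Agilent Feature Extraction 10.7.1.1, background-corrected by the scanner software without scaling between arrays, and a table of log2 values. That table differed from quantile-normalized log2 intensities by a median of 2.13e-06. By the file headers the arrays share their slide and scan. Here control spots were left out, as were outlier spots (226 in the siRNA-NC array, 188 in the other), spots of the same probe were averaged as log2 values, and the 75th percentile (intensities of 592 and 519) was subtracted. Probes well above background on both arrays were averaged per gene. For genes without such a probe, probes well above background on only 1 array gave a bound. The signal on the other array was raised to the lowest signal well above background if it lay under that. A log2 fold change that then pointed against the array well above background was set to 0. The *t*-test of the methods needs replicates and was not run. The calculation was tested on simulated data. The members, lists and alternatives were chosen with earlier results of these data known. The genes named are the 9 members, *Ppp2r5d*, *Mastl*, relatives of members by name, and the highest, the lowest and each gene past 2-fold in a related list. Cell type markers lie outside this rule and were named after their values were seen. Also outside it are *Apex1*, *Nme1*, *Trex1*, *Mat2a*, *Mat2b* and *Ahcyl1* of the related lists. Of the members, 8 matched a symbol and 1 a synonym in the RefSeq table of GRCm38, from which no coordinate was used. The tools were Python 3.11.15, NumPy 2.4.6, Biopython 1.88, pandas 2.3.3 and matplotlib 3.10.9, with limma 3.58.1 under R 4.3.3.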

Additional observations from a re-analysis of the deposited data

How the results depend on the processing

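No paired analysis was possible because each condition has 1 array. In 10 alternatives of scaling, background correction, filter and probe choice, 0 of the 9 members were past 2-fold, and 0 were past 1.5-fold at the lower threshold. As reported, 2.43% and 9.18% of all genes were past these folds, so counts of 0 are no result about the members as a group. The median log2 fold change of the members, 0.076, was -0.14 with spike-in scaling and 0.22 with the probe of the highest mean signal. That of *Ppp2r5d*, -2.61, was -2.82 with spike-in scaling and -2.49 after normexp correction. The number of genes past 2-fold on the array, 525, was 273 with the stricter filter and 2040 with dim probes kept in, 107 after normexp correction and 1987 at a threshold of 1.5-fold. It split into 217 higher and 308 lower genes as reported, into 121 and 619 with spike-in scaling and into 62 and 45 after normexp correction. The cause was not tested. Signal over background limits the second probe of *Igbp1* and the third of *Set*, which were not well above background.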
